A study of Rattus norvegicus with 8 samples.

Results

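Transcripts of actins, myosin chains, troponins, tropomyosins, alpha-actinins, desmin and the myogenic factors Myog and Myod1 were examined in the heads of E12.5 rat embryos. The 70 probe sets, of 8799 on the array, were those whose single annotated symbol names a member of these families, and they read 41 of the 4737 genes that the array's annotation gives a probe set of their own. By symbol, 39 probe sets were of striated muscle genes (26 genes) and 9 of smooth muscle genes (4 genes). Another 9 were of cytoplasmic genes (7 genes) and 13 of tropomyosins (4 genes), a family with muscle and cytoplasmic forms. The embryos were wild-type or Pax6 homozygous, Pax6 being a paired-domain transcription factor of eye and forebrain development, with allele and rat strain unnamed in the labels. Heads were divided at the isthmus into a forebrain part, with midbrain, eye and nose primordia, and a hindbrain part, with the pharyngeal arches and tissue back to the forelimb cut. The 4 groups had 2 arrays apiece, called replicate 1 and replicate 2 after their labels, giving 8. Whether the members of a pair are separate litters is not stated, nor how many embryos were pooled, so all p-values here reflect array-to-array spread that may be technical.

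Striated muscle contracts when myosin heavy chains, each with a pair of light chains, pull on filaments of sarcomeric actin, and calcium acts through the troponin complex and tropomyosin on the thin filament. The basic helix-loop-helix factors Myod1 and Myog drive skeletal muscle differentiation, and head and pharyngeal arch mesoderm gives rise to the muscles of eye, jaw and face. Smooth muscle and non-muscle cells use related myosins, regulated by phosphorylation of a light chain, on the smooth muscle actins and on the cytoplasmic beta and gamma actins found in every cell.

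Stretches are shown upstream of the 5 member genes with the lowest p by region, all of them higher in hindbrain. Whether these genes share control was not tested. Each is the 250 bases before the annotated start in RefSeq (build GRCr8), written 5′ to 3′ on the strand of the gene. Capitals mark matches on either strand to the E-box CANNTG, which MyoD-type factors bind, or to TATAAA. They also mark the CArG box, which serum response factor binds, in its strict form CCWWWWWWGG (W being A or T). Near-matches to that form, such as ccctatatgg upstream of Actc1 and Acta2, were neither marked nor counted. No base lay in more than 1 match.
Acta1 (chr19:68784195-68784444, minus strand): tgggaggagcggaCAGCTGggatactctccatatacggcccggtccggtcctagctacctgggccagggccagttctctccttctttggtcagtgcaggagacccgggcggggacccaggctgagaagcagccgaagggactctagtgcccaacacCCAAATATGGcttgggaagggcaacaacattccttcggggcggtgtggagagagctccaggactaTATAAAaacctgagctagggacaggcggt
Actc1 (chr3:121271828-121272077, minus strand): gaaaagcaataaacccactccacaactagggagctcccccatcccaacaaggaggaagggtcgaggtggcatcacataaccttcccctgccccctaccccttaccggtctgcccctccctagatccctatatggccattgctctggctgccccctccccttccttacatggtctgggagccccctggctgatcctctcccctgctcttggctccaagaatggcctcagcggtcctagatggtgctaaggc
Acta2 (chr1:241172504-241172753, minus strand): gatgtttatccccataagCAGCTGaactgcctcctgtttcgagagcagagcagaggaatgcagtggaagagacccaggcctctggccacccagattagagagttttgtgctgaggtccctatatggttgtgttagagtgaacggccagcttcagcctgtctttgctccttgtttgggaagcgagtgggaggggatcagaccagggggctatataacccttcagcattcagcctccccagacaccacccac
Tnnc2 (chr3:173935340-173935589, minus strand): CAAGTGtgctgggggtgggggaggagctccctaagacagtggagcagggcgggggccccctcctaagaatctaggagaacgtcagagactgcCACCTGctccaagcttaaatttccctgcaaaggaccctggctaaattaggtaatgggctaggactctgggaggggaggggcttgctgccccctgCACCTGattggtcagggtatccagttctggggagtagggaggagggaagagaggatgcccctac
Myh3 (chr10:52268935-52269184, plus strand): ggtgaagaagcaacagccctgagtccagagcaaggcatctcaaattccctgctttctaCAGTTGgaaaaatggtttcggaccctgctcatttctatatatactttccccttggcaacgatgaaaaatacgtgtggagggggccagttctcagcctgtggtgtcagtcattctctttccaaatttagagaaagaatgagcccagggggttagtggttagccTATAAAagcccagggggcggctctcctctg

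Of the 41 genes, 33 had an upstream sequence in the RefSeq table. The E-box letters occurred upstream of 6 of the 7 genes called by region below, of 19 of the other 26, and in 65.5% of all 33469 upstream stretches of the same length. The strict CArG form, with no mismatch allowed, occurred upstream of 1 of the 7 (Acta1), of 3 of the other 26, and in 501 of the 33469 stretches. These counts do not show that the other genes lack a CArG box. TATAAA occurred upstream of 3 of the 7, of 5 of the other 26, and in 12.9% of all. These matches are descriptions of the letters and no evidence of binding.

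A minority of the striated muscle probe sets passed a test as higher in the hindbrain part. Of the 29 tested, 25 had a negative difference, forebrain minus hindbrain, against 3126 of all 5881 tested. With limma's test over 5881 probe sets, 8 of 39 passed as higher in hindbrain (adjusted p under 0.05) and 0 as higher in forebrain, and they read 6 of the 26 striated genes, Actc1, Tnnc2, Myh3, Acta1, Myl11 and Myl4. Of the 39, 11 were above noise on no array, noise being the absolute value of an array's 5th intensity percentile. Among smooth muscle genes 2 probe sets passed, both of Acta2. No cytoplasmic and no tropomyosin probe set passed, and at an unadjusted p under 0.05 these classes held 0 and 2 (8.09% of all probe sets tested reached it). Over all probe sets tested 1.22% passed as higher in hindbrain and 1.51% in either direction. The striated count was 5 and 4 without wild-type hindbrain replicates 1 and 2, 3 and 4 without Pax6 homozygous hindbrain replicates 1 and 2, and 4 without the filter on dim values. That filter kept 29 of the 39 striated probe sets and 6 of the 9 smooth muscle ones. A probe set kept only through its hindbrain arrays had to differ. Such calls included Actc1, Tnnc2, Acta1, Myh3 M12098_s_at, Myl11 X00975_g_at, Myl4 X51531cds_g_at and Acta2 X06801cds_i_at. Their p-values were thus computed on probe sets chosen partly by that difference. Without the filter Actc1, Tnnc2, Myh3 M12098_s_at and Myl4 X51531cds_g_at still passed, and Acta1, Myl11 X00975_g_at and Acta2 X06801cds_i_at did not. Counted over all 70 with no filter, every hindbrain array lay above every forebrain array in 14 of 39 striated, 2 of 9 smooth muscle, 0 of 9 cytoplasmic and 2 of 13 tropomyosin probe sets, against 3.49% of 8740 probe sets. The opposite order occurred in 0 of the 70, against 1.9%.

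**Figure D1:**
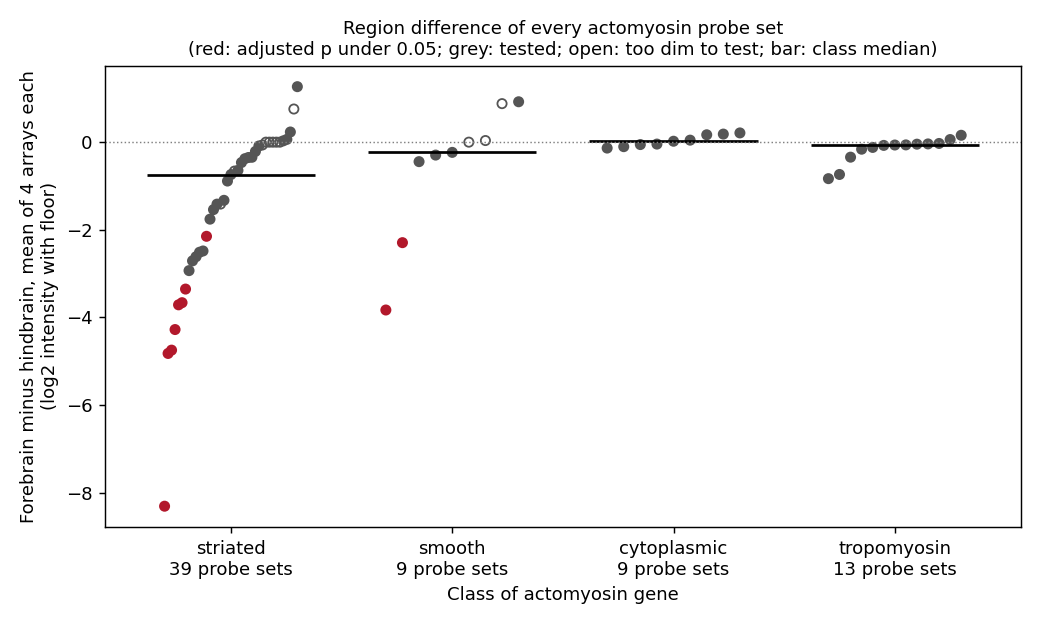
Each point is 1 of the 70 actomyosin probe sets, placed by class on the horizontal axis and by its forebrain minus hindbrain difference in mean log2 intensity (4 arrays a region, floor applied) on the vertical axis. Red points passed limma's test, open points were too dim to test, and bars are class medians, -0.74 for striated and 0.02 for cytoplasmic probe sets.

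Over all 39 striated probe sets the median region difference, forebrain minus hindbrain, was -0.74 on the log2 scale. It was -0.23 for smooth muscle, -0.07 for tropomyosin and 0.02 for cytoplasmic probe sets, and 0.0 for all probe sets. In bulk tissue a smaller number of muscle cells and less RNA per cell cannot be told apart.

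Of the members that passed, Actc1 had the largest difference. Actc1 (rc_AA866452_s_at), the cardiac alpha-actin that embryonic skeletal muscle also makes, read 16621 and 14605 in hindbrain of wild-type embryos and 17000 and 13746 in that of Pax6 homozygotes. In forebrain it read -184 and 46.6 in wild-type and -71.9 and 56.7 in Pax6 homozygous tissue. Every hindbrain array was bright and no forebrain array exceeded its noise level. Hindbrain was at least 37.4-fold higher, with each dim array counted at its noise level (log2 difference -8.31 ± 0.24 SE with the floor, adjusted p = 7.35e-07).

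Acta1 (J00692_at), skeletal alpha-actin, read 2297 and 2241 in wild-type and 2264 and 1773 in Pax6 homozygous hindbrain. Its forebrain readings were 367 and 41 in wild-type and 130.3 and 66.3 in Pax6 homozygous tissue, none above noise. Hindbrain was at least 5.16-fold higher (log2 difference -4.28 ± 0.61, adjusted p = 0.0103). Without Pax6 homozygous hindbrain replicate 1 it did not pass (adjusted p = 0.0523), nor did it without the filter on dim probe sets (0.132).

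Among troponins, which switch the thin filament on with calcium, Tnnc2 (rc_AI639532_at), the calcium-binding subunit of fast skeletal muscle, read 1454 and 1799 in wild-type and 956 and 1141 in Pax6 homozygous hindbrain. All 4 forebrain readings were negative, between -82.7 and -4.7. The fold was at least 3.15 (log2 difference -4.82 ± 0.42, adjusted p = 0.000523). The floor set all 4 forebrain readings equal, so this error and p hold no spread between forebrain arrays. Tnni1 (J04993_at), the inhibitory subunit of slow skeletal muscle, read 881 to 1195 in hindbrain and 179 to 464 in forebrain with no overlap, but did not pass (log2 difference -1.76 ± 0.39, adjusted p = 0.0812). It passed with the replicate number as a block (adjusted p = 0.0445), without wild-type forebrain replicate 1 (0.033) and with a higher floor, the pooled median (0.0238). Tnnt2, the cardiac troponin T that embryonic skeletal muscle also makes, read 1106 to 1352 in hindbrain and 513 to 1114 in forebrain, and the ranges overlapped (adjusted p = 0.64). Tnnt3, troponin T of fast muscle, read 352 to 831 in hindbrain and 232.5 to 519.6 in forebrain, and both probe sets of Tnni3, the cardiac inhibitory subunit, overlapped as well. Tnni2, the fast inhibitory subunit, was above noise on no array.

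Myh3 is the embryonic skeletal myosin heavy chain and was read by 5 probe sets. M12098_s_at read 2060 and 1526 in wild-type and 1748 and 1214 in Pax6 homozygous hindbrain, and between -88 and 132 in forebrain, where no array rose above noise. Hindbrain was at least 3.89-fold higher (adjusted p = 0.001). X04267_at was above noise everywhere, at 6169 to 9163 in hindbrain and 870.2 to 2751 in forebrain (4.44-fold, log2 difference -2.15 ± 0.36, adjusted p = 0.0214). K03468_s_at and K03467_s_at also had every hindbrain array above every forebrain array but did not pass (adjusted p = 0.11 and 0.207), and L00370cds_s_at was above noise nowhere. The X04267_at call ended without any 1 of the 4 hindbrain arrays (adjusted p = 0.0903 and 0.0619 without wild-type replicates 1 and 2, 0.0824 and 0.0518 without Pax6 homozygous replicates 1 and 2), and without Pax6 homozygous forebrain replicate 2 (0.0903). It also ended with the higher floor (0.157), without the filter (0.193) and without an intensity trend (0.116).

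Other heavy chains did not pass. Myh8, the perinatal skeletal form, read 2328 to 4174 in hindbrain and 2686 to 4248 in forebrain (log2 difference 0.03, 95% interval -0.56 to 0.62). Myh1, a fast adult form, read 1002 to 1709 in hindbrain and 860.4 to 1579 in forebrain. Heavy chain genes lie in a family of near-identical copies, so reads of single members are uncertain. Myh4 and Myh13, of fast and extraocular muscle, read 270.5 to 481 and 247 to 896 in hindbrain and 124 to 496.5 and 217 to 518 in forebrain. Myh2 was above noise on no array. Myh6, the atrial heavy chain, had 2 probe sets above noise nowhere, while rc_AI104924_f_at was above noise on 3 forebrain and 2 hindbrain arrays. That probe set read 233 to 910.3 in forebrain and -121 to 829.6 in hindbrain and had the largest difference towards forebrain of the striated probe sets (log2 difference 1.27 ± 0.87, adjusted p = 0.859). Of the 2 probe sets of Myh7, the slow and ventricular heavy chain, X15939_i_at was above noise nowhere, and X15939_f_at read 281 to 695 in hindbrain and 236 to 403 in forebrain (adjusted p = 0.708).

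Among light chains, Myl11 and 1 of 2 Myl4 probe sets passed by region. Myl11, the regulatory light chain of fast skeletal muscle, had 2 probe sets. Probe set X00975_at read 2824 and 2696 in wild-type and 2097 and 1899 in Pax6 homozygous hindbrain, against 83.4 to 539 in forebrain (log2 difference -3.35 ± 0.53, adjusted p = 0.0167). X00975_g_at read 672 and 2156 in wild-type and 1830 and 1973 in Pax6 homozygous hindbrain, against 6.9 to 188 in forebrain (at least 3.66-fold, adjusted p = 0.0131). The regions did not overlap in either probe set, and wild-type hindbrain replicate 1 was the lowest hindbrain array of the latter.

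Myl4, the essential light chain of atria and embryonic muscle, read 592 and 653 in wild-type and 383 and 774 in Pax6 homozygous hindbrain with X51531cds_g_at. All 4 forebrain readings were negative, and the fold was at least 1.41 (adjusted p = 0.0132). The floor set these 4 readings equal, so the p holds no spread between forebrain arrays. Only 2 of the 4 hindbrain arrays exceeded noise for this probe set. X51531cds_at read 622 to 1064 in hindbrain and -105 to 208 in forebrain, without overlap, and missed the threshold (adjusted p = 0.0566, and 0.0399 with the replicate number as a block). It passed without Pax6 homozygous forebrain replicate 1 (0.0325). Myl1, the essential light chain of fast skeletal muscle, read 748 to 1203 in hindbrain and 229 to 584 in forebrain without overlap and did not pass (adjusted p = 0.11), though it did with the higher floor (0.0324).

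Each of the 3 light chain calls was lost when single hindbrain arrays were left out and under other processing. Without wild-type hindbrain replicate 1 or 2 the adjusted p of Myl4 X51531cds_g_at was 0.069 and 0.0745, and without Pax6 homozygous hindbrain replicate 1 or 2 it was 0.0859 and 0.205. For Myl11 X00975_at these 4 values were 0.069, 0.0659, 0.0686 and 0.0722, and without wild-type forebrain replicate 2 it was 0.0603. Myl11 X00975_g_at lost its call without wild-type hindbrain replicate 2 (0.0576) and without Pax6 homozygous hindbrain replicate 1 (0.0641) or 2 (0.0782). With the higher floor Myl4 X51531cds_g_at had a log2 difference of -0.32 (adjusted p = 0.704) and Myl11 X00975_g_at one of -1.60 (0.231). Without the filter the Myl11 probe sets X00975_g_at and X00975_at had adjusted p = 0.131 and 0.158, and without an intensity trend X00975_at had 0.0767.

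**Figure D2:**
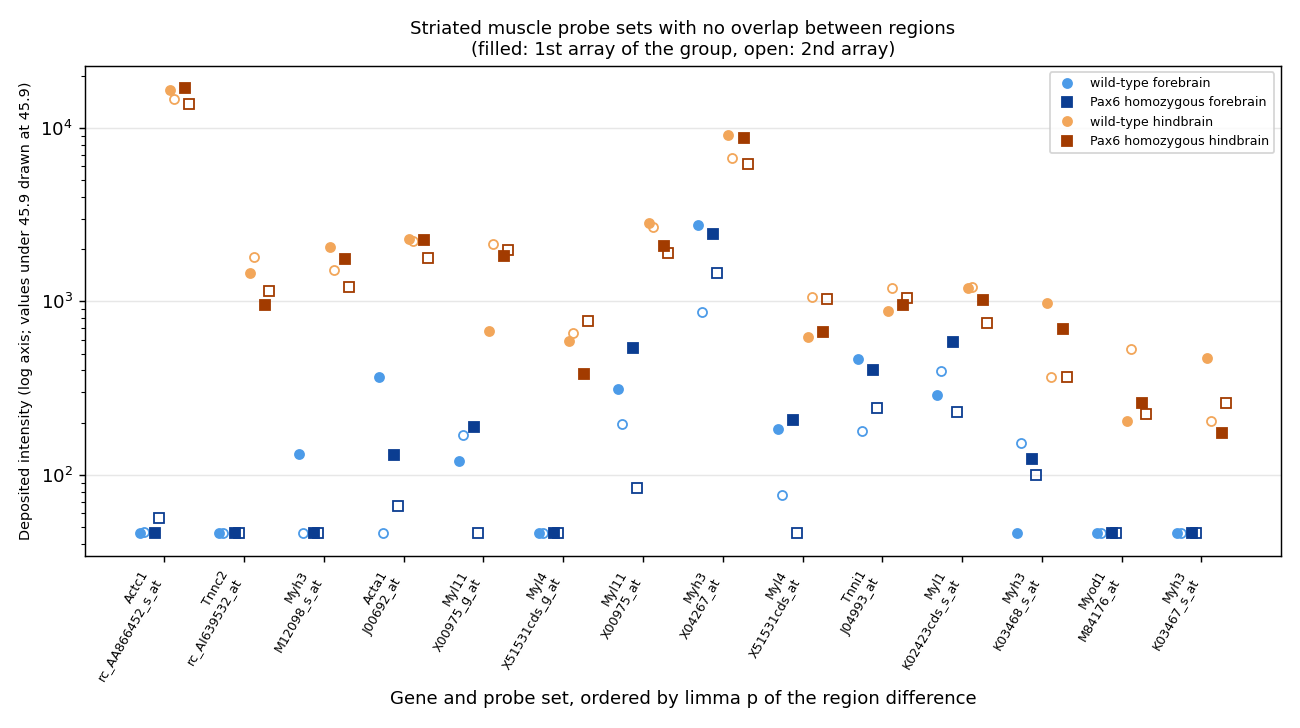
The 14 striated probe sets whose regions did not overlap are on the horizontal axis, and the vertical log axis gives the deposited intensity on each of the 8 arrays, with values under 45.9 drawn there. Orange hindbrain symbols lie above all blue forebrain symbols in each column, and Actc1 has the widest gap, with hindbrain readings from 13746 to 17000.

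The heart was checked because the hindbrain part reached back towards the trunk. Myl2 (ventricular regulatory light chain) was above noise on no array in any of its 3 probe sets. Tnni3 M92074_at was negative on all 8 arrays, while M92074_g_at read 436 to 1311 in hindbrain and 811.2 to 1382 in forebrain. Myl7, the atrial regulatory light chain, read 684 to 1058 in hindbrain and 712 to 1190 in forebrain with rc_AA891242_at (log2 difference 0.06). Its other probe set, rc_AA891242_g_at, read 242 to 445 in hindbrain and 96.9 to 356.5 in forebrain (log2 difference -0.89 ± 0.47, adjusted p = 0.726). Gja5 AF022136_at, a gap junction protein of atria and arteries, read 409 ± 218 in hindbrain and 139 ± 405 in forebrain (mean ± SD, n = 4 arrays, log2 difference -1.88 ± 0.94, adjusted p = 0.682), and was above noise on 3 and 1 arrays. The brighter Gja5 probe set, M76535cds_at, was above noise on all 8 arrays. It read 1640 ± 580 in hindbrain and 1824 ± 616 in forebrain (log2 difference 0.15 ± 0.34). Of the 4 heart markers of lowest p, the lowest-p probe sets of Tnnt2 (log2 difference -0.65), Gja5 and Myl7 leaned towards hindbrain. That of Myh6 leaned towards forebrain. Of 13 heart marker probe sets tested, 7 had a negative difference, and the median was -0.02. Myl3, a ventricular and slow muscle light chain, read -66.2 to 1018 in hindbrain and -86.2 to 574 in forebrain. The list of 14 heart markers did not hold Actc1 and Myl4, which heart also makes and which had probe sets that passed by region. Of 26 probe sets of the listed markers, several of them members, 13 were above noise on no array. Of the 13 tested 0 passed by region, and in 0 of the 26 did every hindbrain array exceed every forebrain array. Their summed intensity was 7362 to 10801 in wild-type and 6423 to 10345 in Pax6 homozygous forebrain, and 6026 to 10095 in wild-type and 9602 to 11046 in Pax6 homozygous hindbrain.

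Of the myogenic factors, Myod1 was dim, and Myog was bright on some hindbrain arrays only. Myod1 (M84176_at), which commits cells to skeletal muscle, was negative on all 4 forebrain arrays and read 205 and 529 in wild-type and 259 and 223 in Pax6 homozygous hindbrain, 1 of them above noise (adjusted p = 0.155, and 0.021 without an intensity trend). Myog (M24393_at), which acts later in differentiation, read -41.3 on replicate 1 and 1986 on replicate 2 of wild-type hindbrain, and 114 and 1821 on those of Pax6 homozygous hindbrain. Forebrain readings lay between -568 and 107. Both replicate 2 arrays of hindbrain were thus bright and both replicate 1 arrays were not above noise, and the region difference did not pass (log2 difference -2.71 ± 1.29, adjusted p = 0.661).

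**Figure D3:**
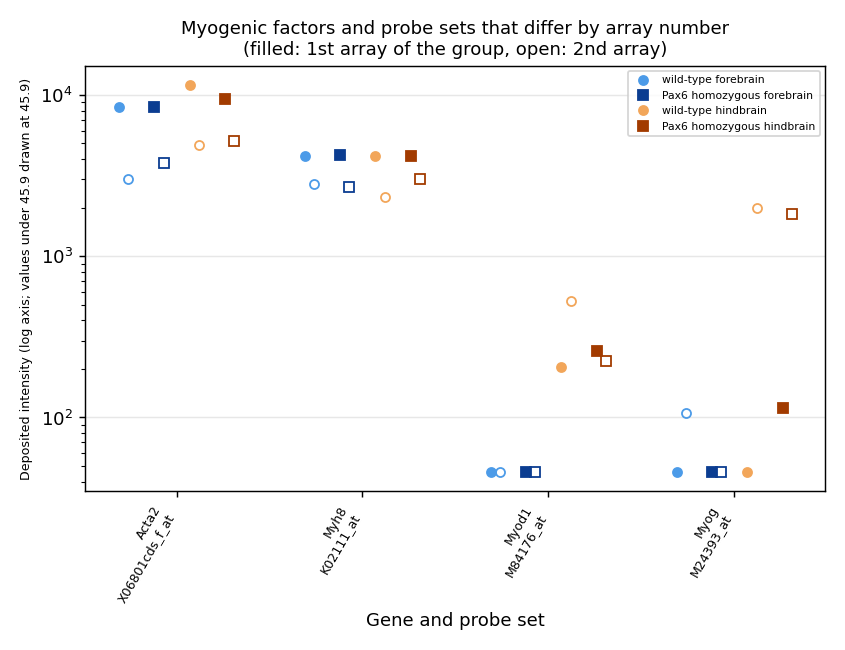
Deposited intensity (vertical log axis, values under 45.9 drawn there) of Acta2 X06801cds_f_at, Myh8, Myod1 and Myog on each of the 8 arrays, with replicate 1 filled and replicate 2 open. Myog in hindbrain read 1986 and 1821 on the replicate 2 arrays only, while Acta2 X06801cds_f_at and Myh8 were higher on every replicate 1 array.

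Over the members as a whole, array number separated a share of probe sets near that of the whole array. All 4 replicate 1 arrays lay above all 4 replicate 2 arrays in 8 of the 70 probe sets, against 10.3% of 8740, and the reverse held in 4 of 70, against 7.41%. Myog was not among them, since its forebrain arrays were dim in both.

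Desmin, the muscle intermediate filament, was negative on 3 of 4 forebrain arrays and above noise on 2 of 4 hindbrain arrays (138 and 393 in wild-type embryos, -162 and 429.5 in Pax6 homozygotes), and did not pass (adjusted p = 0.88). Actn2, the Z-disc alpha-actinin, was above noise on no array and was not tested.

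Smooth muscle members split. Acta2, the alpha-actin of vascular smooth muscle that embryonic striated muscle also makes, passed with rc_AA900769_s_at, at 4354 and 5307 in wild-type and 3934 and 4873 in Pax6 homozygous hindbrain. In forebrain it read 765 and 815 in wild-type and 910 and 1348 in Pax6 homozygous tissue, below every hindbrain array (4.91-fold, log2 difference -2.29 ± 0.20, adjusted p = 0.000489). X06801cds_i_at read 1844 to 3493 in hindbrain and 76.2 to 542 in forebrain, again without overlap (log2 difference -3.83 ± 0.52, adjusted p = 0.00709, and 0.114 without the filter). X06801cds_f_at overlapped between regions, at 4911 to 11510 in hindbrain and 3010 to 8431 in forebrain (log2 difference -0.44, 95% interval -1.41 to 0.52). The manufacturer's suffixes _s_at and _f_at mark probe sets that share sequence with other transcripts or a gene family, so Acta2 and Actc1 readings may include other actins.

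Myh11, the smooth muscle myosin heavy chain, was above noise on no array in its 3 probe sets, and Actg2, the enteric smooth muscle actin, on none in its 1. Myl9, the regulatory light chain of smooth muscle and non-muscle cells, was bright in both regions, at 5993 to 8690 in hindbrain and 4158 to 8622 in forebrain with S77900_at (log2 difference -0.23, 95% interval -0.73 to 0.27). Its second probe set gave -0.30 (-0.68 to 0.09).

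Cytoplasmic actins and myosin light chains were bright on every array. Actb, beta-actin, read 49112 to 77351 in hindbrain and 55388 to 65315 in forebrain (log2 difference -0.04, 95% interval -0.32 to 0.23). Actg1, gamma-actin, read 69633 to 94721 in hindbrain and 63835 to 75855 in forebrain (-0.14, -0.36 to 0.09). For the light chains Myl12a, Myl12b, Myl6 and Myl6b and the alpha-actinin Actn4 the log2 differences ran from -0.10 to 0.21. Their 95% intervals all spanned 0, the widest reaching from -0.73 to 0.62 (Myl6) and from -0.46 to 0.88 (Actn4). Regions overlapped in all 9 cytoplasmic probe sets.

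**Figure D4:**
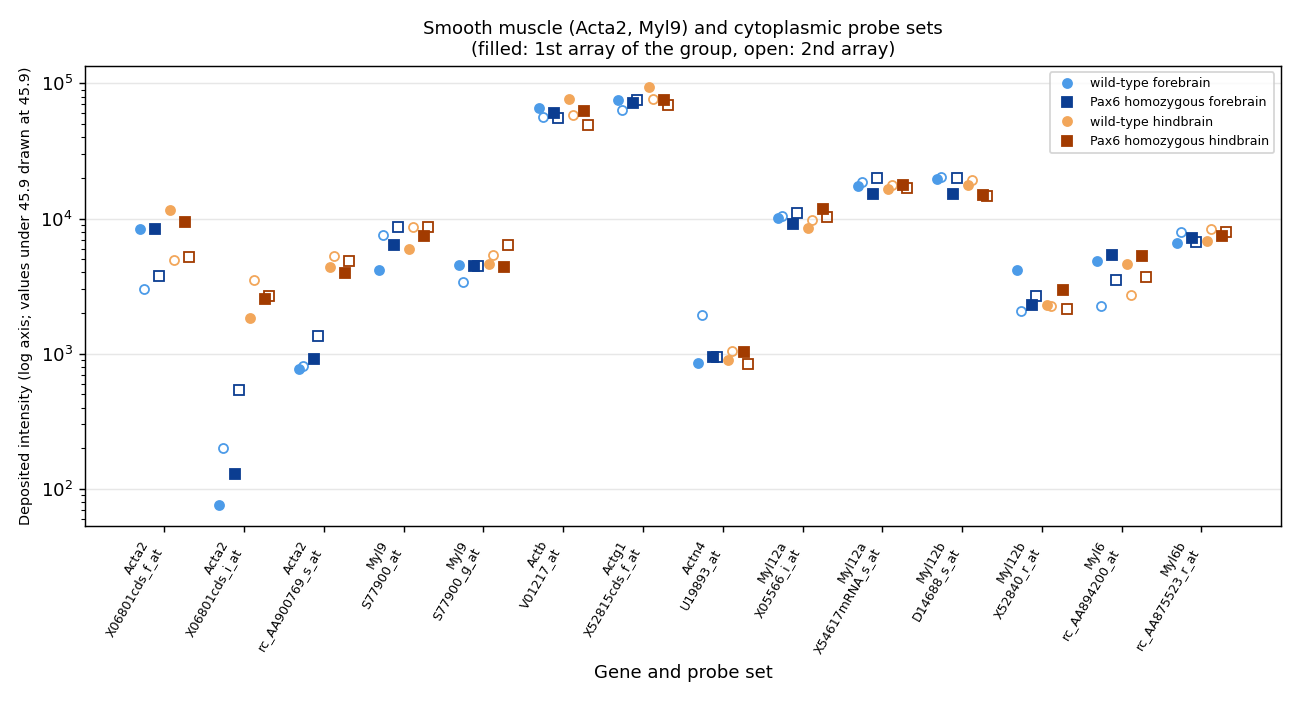
Deposited intensity (vertical log axis) on each of the 8 arrays for the Acta2, Myl9 and cytoplasmic probe sets named on the horizontal axis. Acta2 rc_AA900769_s_at and X06801cds_i_at separate orange hindbrain from blue forebrain symbols, and in the cytoplasmic probe sets the regions overlap.

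The region difference was also tested within each genotype, as contrasts of the same fit of all 8 arrays, which shares its spread between genotypes. Fits on only the groups compared called 3 member probe sets in wild-type and 3 in Pax6 homozygous tissue. The counts that follow are from the shared fit. In wild-type 5 member probe sets passed, all higher in hindbrain (0.782% of all tested passed, 0.578% as higher in hindbrain), Actc1, both Acta2 probe sets, Tnnc2 and Myh3 M12098_s_at. In Pax6 homozygous tissue 4 passed, all higher in hindbrain (0.459% of all, 0.323% as higher in hindbrain), the same probe sets without Acta2 X06801cds_i_at. Except for Acta2 rc_AA900769_s_at, the filter kept these probe sets only through their hindbrain arrays, so they had to differ to be tested. Wild-type and Pax6 homozygous log2 differences were -8.40 and -8.23 for Actc1, -5.14 and -4.51 for Tnnc2, -4.51 and -4.99 for Myh3 M12098_s_at and -2.61 and -1.98 for Acta2 rc_AA900769_s_at. At an unadjusted p under 0.05 there were 18 in wild-type and 18 in Pax6 homozygous tissue (5.71% and 5.97% of all). The wild-type count was 2 without either wild-type hindbrain array and 3 without either Pax6 homozygous hindbrain array. The Pax6 homozygous count was 1 without wild-type hindbrain replicate 1 or either Pax6 homozygous hindbrain array, and 2 without wild-type hindbrain replicate 2 or Pax6 homozygous forebrain replicate 2. With the replicate number as a block 9 passed in wild-type and 7 in Pax6 homozygous tissue. The genotypes were not shown to differ in any region difference: in the interaction test 0 of 57 member probe sets passed (0.0% of all), and 1 had an unadjusted p under 0.05, against 1.9% of all.

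Genotype itself moved no member past the test. With limma 0 of 57 member probe sets passed in forebrain (0.017% of all passed), in hindbrain (0.017%) or over both regions (0.034%). An unadjusted p under 0.05 was reached by 4, 1 and 5 member probe sets, against 2.92%, 4.49% and 5.02% of all tested. Median log2 changes, Pax6 homozygous minus wild-type over both regions, were -0.01 for striated, -0.05 for cytoplasmic, 0.15 for smooth muscle and 0.20 for tropomyosin probe sets, and 0.03 for all probe sets tested.

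Of the 5 lowest p-values over both regions, 4 belonged to tropomyosins, the rod proteins that lie along actin filaments. Tpm1 rc_AI144767_s_at read 988 and 849 in wild-type and 1963 and 1472 in Pax6 homozygous forebrain, and 1014 and 1231 in wild-type and 1721 and 1764 in Pax6 homozygous hindbrain. Both Pax6 homozygous arrays lay above both wild-type arrays in each region. The log2 change over both regions was 0.77 ± 0.21 (unadjusted p = 0.00536, adjusted p = 0.801). Tpm1 M34134_s_at read 2035 and 3623 against 4662 and 4405 in forebrain, and 4785 and 5656 against 7280 and 7744 in hindbrain (wild-type against Pax6 homozygous, log2 change 0.63 ± 0.19, adjusted p = 0.825). Tpm4 J02780_at, a mainly cytoplasmic tropomyosin gene, read 15107 and 14876 against 19050 and 20704 in forebrain, and 15016 and 19193 against 19418 and 19446 in hindbrain (log2 change 0.30 ± 0.11, adjusted p = 0.928).

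The other Tpm1 probe sets did not keep that order in both regions. M60666_s_at read 11489 and 13484 against 16917 and 16817 in forebrain, and 12766 and 12658 against 12187 and 14483 in hindbrain, and X02412_at overlapped in both. Over all 70 members, Pax6 homozygous arrays lay above wild-type arrays in both regions in 4 (4.12% of all probe sets did) and below them in 1 (2.54%). Tpm2, the beta-tropomyosin gene, read 931 to 1208 in hindbrain and 905 to 1443 (L00382cds_at) in forebrain. The brightest Tpm3 probe set, S82383_s_at, read 26057 to 34171 in hindbrain and 23804 to 36589 in forebrain, and rc_AA859305_s_at read 10239 to 13918 and 9671 to 13550.3. Regions overlapped in all 5 Tpm3 probe sets and in both of Tpm4. By region, Tpm1 M34134_s_at and X02412_at had every hindbrain array above every forebrain array. M34134_s_at did not pass (log2 difference -0.83 ± 0.19, adjusted p = 0.0967), but did with the replicate number as a block (0.0421) and without wild-type forebrain replicate 2 (0.0157).

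**Figure D5:**
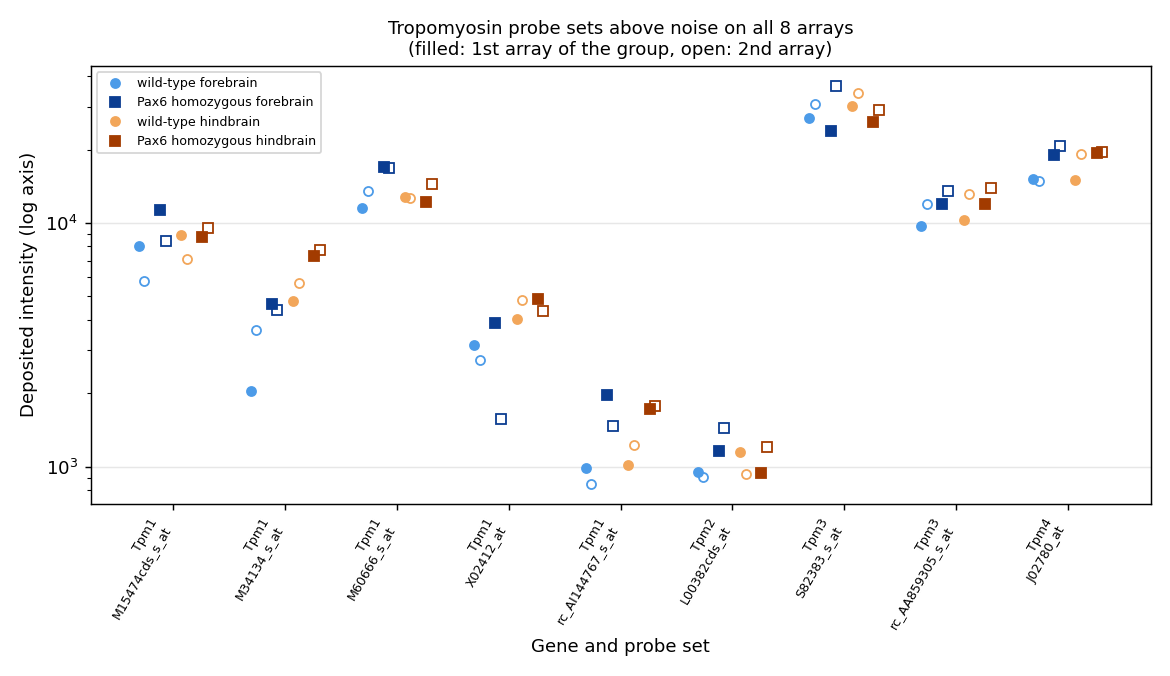
Deposited intensity (vertical log axis) on each of the 8 arrays for the 9 tropomyosin probe sets above noise everywhere, circles for wild-type and squares for Pax6 homozygous tissue. In Tpm1 rc_AI144767_s_at and M34134_s_at and in Tpm4 J02780_at the squares lie above the circles of the same region, and none of these changes passed the test.

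In hindbrain the lowest genotype p belonged to Actg2 M22323_at, at 508 and 202 in wild-type and -34.2 and 16.1 in Pax6 homozygous tissue, all under noise (unadjusted p = 0.0102, adjusted p = 0.989). Tpm1 rc_AI144767_s_at came next (log2 change 0.64 ± 0.29). The fast heavy chain Myh1 read 1073 and 1002 in wild-type and 1709 and 1705 in Pax6 homozygous hindbrain (log2 change 0.72 ± 0.36). Myl12b D14688_s_at, a non-muscle regulatory light chain, read 17754 and 19446 in wild-type and 15061 and 14777 in Pax6 homozygous hindbrain (log2 change -0.32 ± 0.16). None of these passed.

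Further muscle genes were read from a separate list of 54. Of these 43 were on the array with 65 probe sets, 33 of which were above noise on no array. Of 31 tested, 0 passed by region with limma and 22 had a negative difference, with a median of -0.17 beside -0.02 for all probe sets tested. In 5 of the 65 every hindbrain array lay above every forebrain array, against 3.49% of 8740 probe sets. Mybpc1, slow myosin-binding protein C, read 404 ± 88.2 in hindbrain and 1.7 ± 88.1 in forebrain (mean ± SD, n = 4 arrays, adjusted p = 0.0755). Casq2, the calsequestrin of slow and cardiac muscle, read 339 ± 65.3 and 49.1 ± 60.8 (adjusted p = 0.136). Itga7 X65036_g_at, a laminin receptor chain of muscle, read 779 ± 193 and 348 ± 43.1 (adjusted p = 0.215). Fabp3, a fatty acid binding protein of muscle and heart, read 1826 ± 268 in hindbrain and 3159 ± 559.8 in forebrain (adjusted p = 0.0973).

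A list of smooth muscle genes and actin regulators had 32 probe sets tested, of which 0 passed with limma and 27 had a negative difference (median -0.18). Limk1 D31873_at, of a kinase that acts on cofilin, had the lowest p (log2 difference -1.06 ± 0.30, adjusted p = 0.215). The brighter Limk1 probe set, D31873_g_at, had a smaller difference (-0.39 ± 0.31, adjusted p = 0.906). Coro1a, a coronin (0.53 ± 0.19), Sptan1, a spectrin (-0.29 ± 0.17), and Rock1, a kinase that raises myosin light chain phosphorylation (-0.53 ± 0.31), did not pass either.

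Of 19 neuron marker probe sets tested, 6 passed as higher in hindbrain, against 1.22% of all tested. All 6 were of the intermediate filament genes Nefl, Nefm, Ina and Prph, and no other neuron marker on the list passed. Of the 19, 17 had a negative difference, with a median of -0.65. Summed neuron marker intensity was 37990 to 39694 in wild-type and 38296 to 41164 in Pax6 homozygous forebrain. In hindbrain it was 112106 to 123516 in wild-type and 85491 to 87609 in Pax6 homozygous tissue. Of 24 mesenchyme probe sets 0 passed as higher in hindbrain and 2 as higher in forebrain (Alx1 and Dlx5). The next lowest p-values were those of Postn and Col2a1, which had negative differences (-1.09 and -0.43) and did not pass. Summed mesenchyme intensity was 177501 to 199962 in forebrain and 175029 to 207887 in hindbrain. Of 7 blood probe sets 0 passed with limma, the lowest p-values being those of Hbb, Hbb-b1, Alas2 and Hbg1, and their sum was 154049 to 199994 in forebrain and 148615 to 171747 in hindbrain. The part of these tissues in the actomyosin differences was not tested. Within groups, the paired arrays' log2 values had r from 0.899 to 0.947 across probe sets, which are not independent replicates.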

How the data were processed

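Affymetrix rat genome arrays of the U34 set were hybridised, per the labels' protocols, with biotin-labelled cRNA made from poly(A) RNA. The authors deposited 1 linear intensity per probe set and array; which software made it and how arrays were scaled is not stated, and 18.3% to 22.3% of values on an array were negative. Array number, not sequencing depth, limits precision. Symbols came from the platform annotation (7018 probe sets with 1 symbol, 0 changed against RefSeq), and 68 of the 70 members had an Entrez identifier in the RefSeq table. Members, classes and lists were chosen with earlier results of these data known. Myl11 was put in the striated class once the annotation was seen.

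Intensities were floored at the pooled 25th percentile (45.9) and log2 was taken. Where all 4 forebrain readings were negative (Tnnc2, Myl4 X51531cds_g_at and Myod1), the floor made them equal. Errors and p-values of these probe sets hold no forebrain spread. Testing required 2 or more arrays over 255, the 40th percentile of all arrays together: 5881 after leaving out 59 array controls. All 8 arrays entered 1 limma model (3.58.1, R 4.3.3; lmFit, eBayes with intensity trend, 4 residual and 4.63 prior degrees of freedom), two-sided, with Benjamini-Hochberg adjustment over all tested. The ± beside a log2 difference is limma's standard error, and 95% intervals use the same error. Noise levels ran from 243 to 619.8. At least N-fold means that no forebrain array exceeded noise, and sets each forebrain array at its noise level and each hindbrain array at its measured value. The rule named every member passing by region, the 4 lowest p-values of each genotype comparison and the 4 lowest genes of each other list. Individual genes named beyond it were chosen after their values were seen. The pipeline was tested on simulated log2 values with no floor, negative readings or pairing by array number. That test therefore does not cover probe sets held at the floor.

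Replicate numbers were checked for pairing. Deviations of arrays with the same number correlated in all 6 group pairs (r from 0.275 to 0.465). The numbers were thus taken to pair the arrays, from the data and not from the labels. Counts and p-values not marked as from the block come from the fit without it, which leaves this pairing out. The fit with the replicate number as a block is given where it changed a call.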

Additional observations from a re-analysis of the deposited data

Results flagged for a closer look

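Probe sets annotated to both Acta2 and Actc1 were outside the members, because they carry several symbols, and 3 of 4 showed a signal above the forebrain level. The region difference, forebrain minus hindbrain on the log2 scale, was -5.01 for rc_AI104567_g_at (adjusted p = 4.43e-05, hindbrain readings 8500.3 to 10045 and no forebrain array above noise). It was -4.08 for X80130cds_i_at (adjusted p = 3.22e-05, 17365 to 21359 against 894.5 to 1414) and -1.85 for X80130cds_f_at (adjusted p = 0.00314, 13470 to 17646 against 3002 to 6129). These probe sets cannot say which of the 2 actins they read.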

How the results depend on the processing

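The 14 alternatives were a floor at the pooled median, no filter, quantile normalization, no intensity trend, the replicate number as a block, each array left out in turn, and only the groups compared. The last applied to contrasts within 1 region or genotype. The calls of Actc1, Acta2 rc_AA900769_s_at, Tnnc2 and Myh3 M12098_s_at by region held in all 13 that applied. Striated probe sets called, 8, numbered 4 without a filter and 3 to 9 with an array left out: 5 and 4 without wild-type hindbrain replicates 1 and 2, 3 and 4 without Pax6 homozygous hindbrain replicates 1 and 2. With the block the striated count was 10. Smooth muscle calls, 2, numbered 1 without a filter. Tropomyosin calls, 0, numbered 1 with the replicate block and 0 to 1 with an array left out. Calls in wild-type, 5, numbered 3 without a filter, 9 with the block, 3 with only the groups compared and 2 to 6 with an array left out. Calls in Pax6 homozygous tissue, 4, numbered 2 without a filter, 7 with the block and 1 to 5 with an array left out. The median striated difference over tested probe sets, -1.54, was -0.32 with the higher floor, which sets more dim values equal, and -0.74 without a filter. The sizes of called differences also depended on the floor. With the higher floor Actc1 went from -8.31 to -4.96, Tnnc2 from -4.82 to -1.39 and Myh3 M12098_s_at from -4.75 to -1.69. Acta2 rc_AA900769_s_at stayed at -2.29. The cause of the other shifts was not tested. Genotype, interaction and cytoplasmic counts stayed at 0 in every alternative run. The block changed no other call by region averaged over genotypes than those of Tnni1, Myl4 X51531cds_at and Tpm1 M34134_s_at. Arrays give no depth, and values under the noise level have no order.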

Other observations

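Cytoplasmic chains were also read by probe sets with several symbols. Those of Myl6 with its copies or with Myl6b read 15242 to 19464 (rc_AA875523_i_at), 88549 to 102457 (rc_AA875523_s_at), 43165 to 56921 (rc_AA894200_g_at) and 27037 to 36860 (S77858_s_at) over the 8 arrays. Those listed for Actb, Actg1 and a copy read 40925 to 77228 (rc_AI070848_f_at) and 79881 to 98122 (rc_AI179012_s_at). Myh9, the non-muscle myosin heavy chain IIA, was listed with its symbol repeated and read 1493 to 2362 (U15764_s_at) and 1750 to 3532 (U31463_at). None of these 8 passed by region with limma, and their log2 differences ran from -0.27 to 0.15.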
